A study of Mus musculus with 6 samples.

Results

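A set of 10 genes that make, recycle, use or break down glutathione, or that bear on ferroptosis, was examined in mouse B-cell acute lymphoblastic leukaemia cells treated with dihydroartemisinin. They were Chac1, Chac2, Ggct, Gclc, Gclm, Gss, Gsr, Gpx4, Slc7a11 and Acsl4, which is 10 of the 22180 genes that the array annotation named. Every probe set paired with only 1 of these symbols was taken (11 in all), and where a gene had several, the brightest one, chosen by its average intensity across the 6 arrays, stood for it. Slc7a11 had 2 probe sets and each other gene had 1. The genes were picked with earlier results of these data known. Chac1 was chosen by its difference between the DHA and DMSO arrays, so its values are given as a description with no test, and the others were picked by pathway.

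The study compared 3 samples treated with 312 nM DHA (dihydroartemisinin, into which artemisinin antimalarials are converted in the body) with 3 samples that received the vehicle dimethyl sulphoxide (DMSO), on Affymetrix arrays. All 6 samples were labelled as BCR-ABL+ B-ALL cells, and the treatment protocol gives 4 h for both groups. The growth protocol describes cells with p185 or p185 T315I BCR-ABL that lack Arf or p53. The labels do not name the line on these arrays, nor say that samples came from separate cultures, so the replicate spread behind each p-value may be technical.

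Values were deposited as log2 intensities after RMA summarisation, so a difference of 1 is a doubling and levels of different probe sets cannot be set against each other. Pairs of arrays correlated at 0.9925 or above over all probe sets. The mean of 11 B-cell precursor markers lay between 10.53 and 10.58 on the DHA arrays and between 10.58 and 10.63 on the DMSO arrays, and each passed the filter on low values (a 6-array mean of at least 4.52, the 30th percentile of genes). Of the 11, limma called 0, and 3 (Rag2, Cd24a and Igll1) were lower and 0 higher at an unadjusted p at or under 0.05, with log2 fold changes of -0.53, -0.16 and -0.12. Of the markers of other cell types, 2 of 7 for T and NK cells, 6 of 9 for the myeloid lineage, 4 of 5 for erythroid cells or megakaryocytes and 7 of 8 for stroma passed that filter, and 0 of these 19 were called changed by limma (2 at an unadjusted p at or under 0.05). The highest 6-array mean in these lists was 4.72, 5.35, 5.85 and 9.43 (Pecam1), in that order. The B-cell precursor markers ran from 4.78 (Vpreb1) to 12.98 (Igll1). Passing the filter is not a call that a gene is expressed. Limma called 0.0902% of all genes that passed, so 0 calls in such short lists say little. At that unadjusted p, 5.94% of all genes that passed were higher and 6.08% lower.

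Glutathione is a tripeptide of glutamate, cysteine and glycine that serves as the main thiol antioxidant of the cell. Cystine enters through the xCT transporter, glutamate-cysteine ligase and glutathione synthetase assemble the peptide, glutathione reductase recycles its oxidised form, and the cyclotransferases of the CHAC family degrade it. Ferroptosis is an iron-dependent death by lipid peroxidation, which GPX4 restrains by reducing lipid peroxides at the cost of glutathione and which ACSL4 favours by loading membranes with polyunsaturated fatty acids. CHAC1 is known as a target of the integrated stress response, in which ATF4 and CHOP are the main transcription factors, whereas several glutathione synthesis genes are known targets of NRF2.

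Chac1 and Slc7a11 were the 2 of 8 members with a promoter in the RefSeq table (build GRCm38.p6) that held the C/EBP-ATF composite element TGATGNAA, the kind of site ATF4 is known to bind, in the 250 bases before the start of transcription. Their promoters are shown because these genes gave unlike readings on the arrays. Capitals mark the element, read on either strand, so that TTGCATCA is the same element on the opposite strand. The Chac1 sequence is chr2:119350992-119351241 on the plus strand and the Slc7a11 sequence is chr3:50443614-50443863 on the minus strand.
Chac1: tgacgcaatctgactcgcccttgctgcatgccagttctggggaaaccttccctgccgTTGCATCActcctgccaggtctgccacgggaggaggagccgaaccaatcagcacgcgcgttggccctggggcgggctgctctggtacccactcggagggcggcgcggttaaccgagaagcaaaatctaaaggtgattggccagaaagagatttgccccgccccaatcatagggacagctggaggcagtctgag
Slc7a11: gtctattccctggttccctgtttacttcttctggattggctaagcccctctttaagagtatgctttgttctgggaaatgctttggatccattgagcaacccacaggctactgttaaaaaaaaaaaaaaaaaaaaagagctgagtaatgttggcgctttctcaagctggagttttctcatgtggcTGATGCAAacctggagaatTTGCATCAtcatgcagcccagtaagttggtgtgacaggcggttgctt

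The Chac1 element began 193 bases before the start, and the Slc7a11 elements began 66 and 47 bases before it. Of all 32851 promoter windows of 250 bases in the table, 3.45% held TGATGNAA on either strand. The core of the antioxidant response element to which NRF2 binds, TGACNNNGC, stood in the promoters of Gclm and Ggct and in 10.2% of all windows. The windows of Gclm and Ggct held no TGATGNAA. Chac2, Gss, Gpx4 and Acsl4 held neither set of letters in their windows, and Gclc and Gsr were not searched. A match is a run of letters in a window and was not tested as a binding site.

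The element is set out below with the flanking bases of the 5 matches in Chac1, Slc7a11 and 2 stress response genes whose array profiles resembled that of Chac1, each read in the direction that gives TGATGCAA. These 2 are shown because they hold the element. Sesn2 and Ddit3, also close to Chac1 in profile, held no match, and Egr1, another close gene, had no window. Vldlr and Asns of the stress response list each held 1 match of TGATGNAA and are not shown.
Chac1, chr2:119351049-119351056: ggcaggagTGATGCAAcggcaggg
Slc7a11, chr3:50443672-50443679: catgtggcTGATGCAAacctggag
Slc7a11, chr3:50443653-50443660: ctgcatgaTGATGCAAattctcca
Atf3, chr1:191183436-191183443: ggacttggTGATGCAAgtgcgaga
Nupr1, chr7:126625573-126625580: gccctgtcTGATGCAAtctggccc

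Chac1 encodes the cyclotransferase that cleaves glutathione into 5-oxoproline and cysteinylglycine, and its RNA was far higher after DHA. It measured 10.80, 10.64 and 10.84 on DHA arrays 1, 2 and 3, against 9.04, 8.58 and 8.02 on DMSO arrays 1, 2 and 3 (log2 intensity). All 3 DHA arrays lay above all 3 DMSO arrays, by 1.60 at the narrowest. The means were 10.76 ± 0.11 with DHA and 8.55 ± 0.51 with DMSO (SD, n = 3 each). The log2 fold change was 2.21, or 4.63-fold (SE 0.23 after limma's moderation of the variance, not the SE from these SDs alone). In RNA from a whole culture, more Chac1 RNA in each cell and more cells that express it cannot be told apart. This was the second of 15526 tested genes in order of log2 fold change. Over all tested genes the log2 fold change ran between -0.84 and 2.48, with a 5th percentile of -0.20 and a 95th percentile of 0.20.

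The DMSO arrays differed from each other in Chac1 far more than the DHA arrays did. The 3 DMSO values spanned 1.02 on the log2 scale, and only 16 of the 15526 tested genes had a larger SD among the DMSO arrays, where the median SD was 0.079. DMSO replicate 1 was the highest of them and DMSO replicate 3 the lowest, so the size of the Chac1 difference depended on which of these was in the group. It was 1.95 without DMSO replicate 3 and 2.46 without DMSO replicate 1.

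The sample titles carry a 3-digit code whose meaning the labels do not give. It starts with 2 for 1 DHA and 2 DMSO arrays and with 4 for the others, and the extraction protocol names 2 and 4 h, whereas the treatment protocol and the titles of the DHA samples name 4 h alone. Among codes that start with 2, Chac1 measured 10.80 on the DHA array and a mean of 8.81 on the DMSO arrays, a difference of 1.99. Among codes that start with 4, the mean was 10.74 on the DHA arrays and the value was 8.02 on the DMSO array, a difference of 2.71. The difference was 2.62 between DHA replicate 2 and DMSO replicate 3, the pair that shares a whole code. With the leading digit as a block in the fit it was 2.35 (SE 0.20). All 3 DHA arrays lay above all 3 DMSO arrays, so none of these comparisons could have had the other sign. Only the size of the difference is read from them. Whether the digit moves with the Chac1 level in DMSO was not tested.

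**Figure D1:**
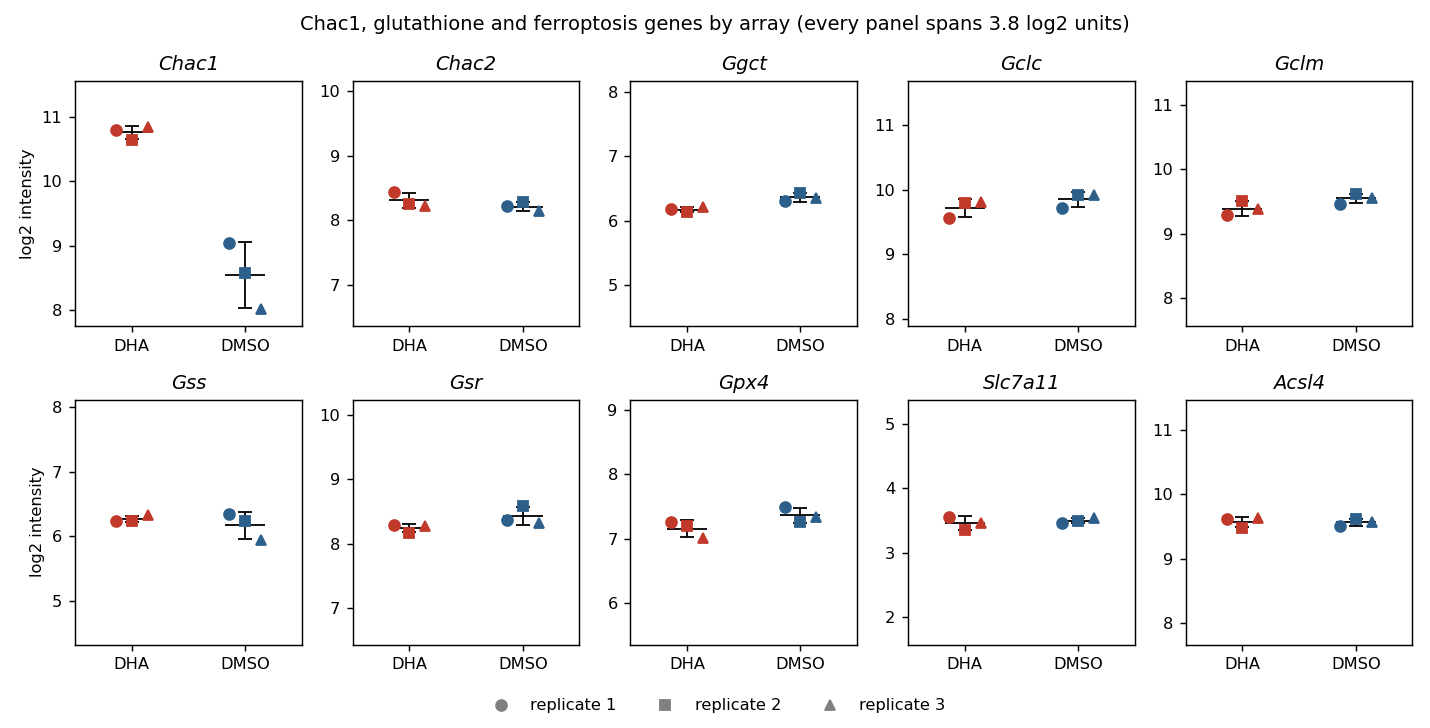
Log2 intensity (vertical axis) of the 10 genes on each array, with DHA left and DMSO right in every panel. Symbols mark replicates 1 to 3 of each group, the bars show the mean ± SD (n = 3), and each panel spans the same number of log2 units about its gene's own mean. Chac1 separates widely (10.76 against 8.55 on average), and the other panels differ by 0.20 or less between group means.

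Chac2 encodes the constitutive relative of CHAC1, which degrades glutathione slowly. Its RNA measured 8.44, 8.25 and 8.23 on DHA arrays 1, 2 and 3, against 8.21, 8.28 and 8.14 on DMSO arrays 1, 2 and 3. The groups overlapped, with a log2 fold change of 0.096 (95% interval -0.076 to 0.27, SE 0.072), which did not pass limma's test over all genes (adjusted p = 0.644).

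Ggct encodes the gamma-glutamylcyclotransferase that acts on gamma-glutamyl amino acids downstream of glutathione breakdown. It measured 6.18, 6.14 and 6.21 on DHA arrays 1, 2 and 3, against 6.30, 6.43 and 6.36 on DMSO arrays 1, 2 and 3. The DHA arrays lay below the DMSO arrays, the opposite side from Chac1, with 0.094 between the nearest pair. Ggct had a log2 fold change of -0.19 (95% interval -0.31 to -0.065, SE 0.052) and did not pass the test over all genes (limma adjusted p = 0.247).

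The subunits of glutamate-cysteine ligase, which catalyses the rate-limiting step of glutathione synthesis, did not pass the test. The catalytic subunit gene Gclc measured 9.56, 9.79 and 9.81 on DHA arrays 1, 2 and 3, against 9.72, 9.92 and 9.93 on DMSO arrays 1, 2 and 3. The modifier subunit gene Gclm measured 9.29, 9.50 and 9.39 on DHA arrays 1, 2 and 3, against 9.47, 9.62 and 9.56 on DMSO arrays 1, 2 and 3. Both groups overlapped in both genes, and replicate 1 was the lowest array within each group for each gene. The log2 fold change was -0.13 for Gclc (SE 0.090, limma adjusted p = 0.613) and -0.16 for Gclm (SE 0.071, limma adjusted p = 0.457).

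Gss encodes glutathione synthetase, the enzyme of the step after the ligase. It measured 6.24, 6.24 and 6.32 on DHA arrays 1, 2 and 3, against 6.35, 6.23 and 5.94 on DMSO arrays 1, 2 and 3. The DHA arrays were close together, while DMSO replicate 3 lay below all the others. The difference of 0.097 on the log2 scale (SE 0.10, limma adjusted p = 0.748) rested on that array and was -0.020 without it.

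Gsr encodes glutathione reductase, which regenerates reduced glutathione with NADPH. It measured 8.29, 8.17 and 8.27 on DHA arrays 1, 2 and 3, against 8.37, 8.59 and 8.33 on DMSO arrays 1, 2 and 3. The DHA arrays lay below the DMSO arrays by 0.036 at the narrowest, a log2 fold change of -0.18 (95% interval -0.37 to 0.0031, SE 0.079), at a limma adjusted p of 0.420.

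Gpx4, the selenoprotein peroxidase that restrains ferroptosis, measured 7.26, 7.20 and 7.01 on DHA arrays 1, 2 and 3, against 7.49, 7.26 and 7.33 on DMSO arrays 1, 2 and 3. The highest DHA array and the lowest DMSO array held the same value, so the groups met without crossing. Gpx4 had a log2 fold change of -0.20 (95% interval -0.41 to 0.0070, SE 0.088) and did not pass the test (limma adjusted p = 0.430).

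Acsl4, the acyl-CoA synthetase that favours ferroptosis, measured 9.61, 9.48 and 9.63 on DHA arrays 1, 2 and 3, against 9.51, 9.62 and 9.57 on DMSO arrays 1, 2 and 3. The groups overlapped fully, with a log2 fold change of 0.0079 (95% interval -0.13 to 0.15, SE 0.059) at a limma adjusted p of 0.971.

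Slc7a11 encodes xCT, the cystine-importing subunit whose heavy chain is Slc3a2. Its brighter probe set measured 3.56, 3.35 and 3.46 on DHA arrays 1, 2 and 3, against 3.46, 3.49 and 3.53 on DMSO arrays 1, 2 and 3. Its other probe set lay between 2.97 and 3.14 on the DHA arrays and between 2.96 and 3.09 on the DMSO arrays. Both lay under the filter of 4.52, so Slc7a11 was the 1 member not tested, and the files give no call on whether a probe set was above background. The DHA mean minus the DMSO mean was -0.042 for the brighter and 0.027 for the dimmer probe set, and the groups overlapped in both. The promoter with 2 copies of TGATGCAA belonged to the member whose probe sets read under the filter in both groups. Whether Slc7a11 RNA changed with DHA cannot be read from such dim probe sets.

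**Figure D2:**
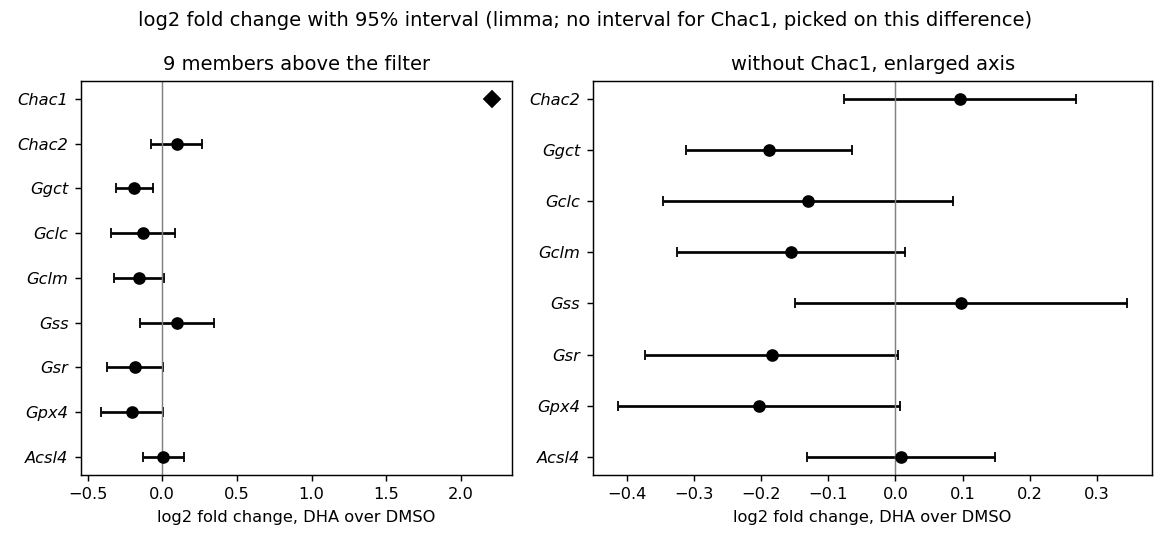
Log2 fold change of DHA over DMSO (horizontal axis) for the 9 members above the filter, with unadjusted 95% intervals from limma for all but Chac1 (diamond, no interval, as it was picked on this difference), on a common axis at left and without Chac1 on an enlarged axis at right. Chac1 stands at 2.21, while the other estimates lie between -0.20 and 0.10.

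Of the 8 members other than Chac1 that were tested, limma called 0 changed (threshold: adjusted p of 0.05 or less), and 1 (Ggct, lower) had an unadjusted p at or under 0.05. Over all tested genes 14 of 15526 were called (0.0902%), which is 0.0837% called higher and 0.00644% called lower, while 5.94% were higher and 6.08% lower at an unadjusted p at or under 0.05. Chac1 is among the 14, and nothing is read from that, since it was picked on this difference. No gene was called by limma once DHA replicate 1, DHA replicate 3 or any 1 of the 3 DMSO arrays was left out (1356 to 1710 genes then had an unadjusted p at or under 0.05), whereas leaving out DHA replicate 2 gave 24 calls. Those 24 held 11 of the 14 and missed Chac1, Arl11 and Slco4a1. Separate groups were seen in 0 of the 8 on the higher side and 2 (Ggct and Gsr) on the lower side, against 7.64% and 8.19% of all tested genes, or 15.8% in either direction. Their median log2 fold change was -0.14, with 3 higher and 5 lower, against 0.0027 for all tested genes. The 95% intervals of the 8 lay within -0.41 and 0.34, and that of Ggct alone left out 0. Protein and glutathione levels were not analysed here.

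The 5 tested genes whose profile lay closest to Chac1, by the root mean square difference over 6 arrays after centring each gene on its own mean, were Sesn2 (0.23), Egr1 (0.24), Nupr1 (0.29), Ddit3 (0.29) and Atf3 (0.33). The median over all other tested genes was 1.15. Sesn2, an inhibitor of mTORC1 signalling, measured 8.51, 8.17 and 8.51 on DHA arrays 1, 2 and 3, against 6.81, 6.51 and 6.28 on DMSO arrays 1, 2 and 3. It shared with Chac1 its lowest DHA array, its highest DMSO array and its lowest DMSO array. Ddit3, which encodes CHOP, had the larger log2 fold change of the pair (2.48 against 2.21 for Chac1) and a narrower spread with DMSO, 0.13 against 0.51 (SD, n = 3). The measure of likeness favours genes with a difference of similar size, and it partly builds in a shared order of the arrays. It says nothing of what the genes share.

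**Figure D3:**
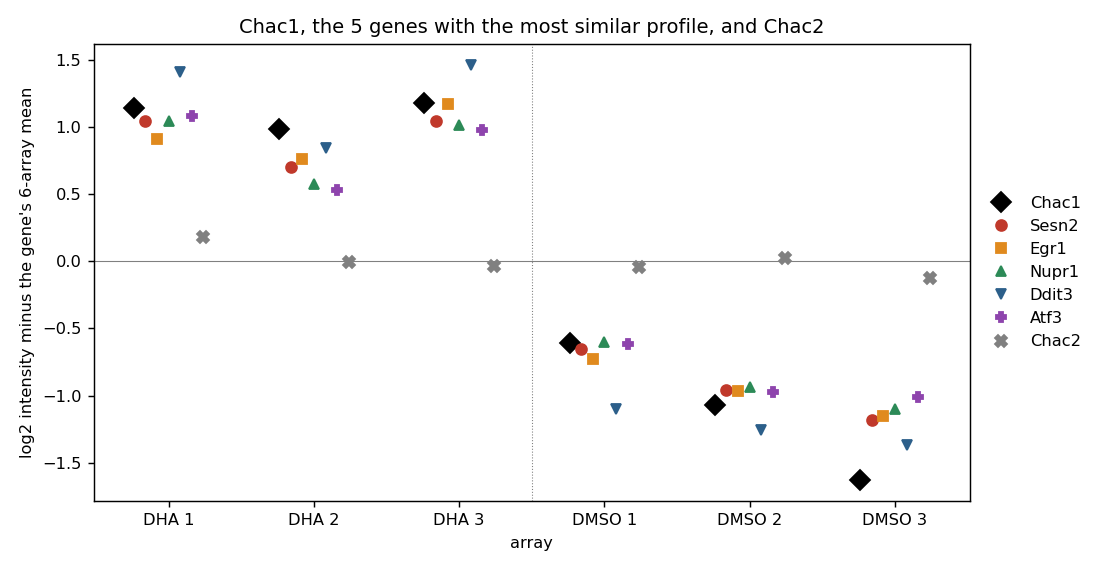
Log2 intensity minus each gene's own 6-array mean (vertical axis) on the 3 DHA arrays at left and the 3 DMSO arrays at right, for Chac1, the 5 genes closest to it and Chac2. DHA replicate 2 is the lowest DHA array and DMSO replicate 3 the lowest DMSO array for Chac1 and each of the 5, whereas Chac2 stays near 0. The 5 were picked for likeness over these same arrays, which partly builds in that shared order.

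The 13 lists of the surrounding pathways were counted next, using the test over all genes. Over all 15526 tested genes, 7954 were higher and 7572 lower, and 0.0902% were called. Separate groups were seen in 15.8%, and 5.94% were higher and 6.08% lower at an unadjusted p at or under 0.05. The counts of each list are to be read beside these shares, and no list was tested as a set. In the list of cysteine and methionine supply 10 of 11 tested genes were higher, with a median log2 fold change of 0.080, 1 gene called higher and 0 lower. The called gene was Slc1a4, a neutral amino acid transporter (1.23, SE 0.10; limma adjusted p = 0.0234), which was also called without DHA replicate 2 (limma adjusted p = 0.0386) and lost on leaving out any other array. Cth, the enzyme that releases cysteine from cystathionine, measured 9.90, 9.15 and 9.48 on DHA arrays 1, 2 and 3, against 8.52, 8.27 and 8.14 on DMSO arrays 1, 2 and 3. Its groups were separate, and it missed the threshold (1.20, SE 0.19; limma adjusted p = 0.0945), as did Slc3a2, the partner of xCT (0.44, SE 0.060; limma adjusted p = 0.0660). Mat2b, a regulatory subunit of methionine adenosyltransferase, was the 1 lower gene (-0.11).

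Other enzymes of glutathione breakdown had a median of 0.022, and 0 of 10 tested genes were called in either direction. The dipeptidase Dpep2 had the smallest p, with -0.34 (SE 0.12; limma adjusted p = 0.343). Oplah, which opens the ring of the 5-oxoproline that CHAC1 releases, had 0.072 (limma adjusted p = 0.786). For peroxidases, glutaredoxins and glyoxalases 0 of 9 were called (median -0.059), with -0.38 for the glutaredoxin Glrx (SE 0.076; limma adjusted p = 0.140) and -0.11 for Gpx1. For glutathione S-transferases 0 of 16 were called (median -0.029), with -0.26 for the mitochondrial and peroxisomal enzyme Gstk1 (SE 0.081; limma adjusted p = 0.298). At an unadjusted p at or under 0.05 there were 0 higher and 1 lower, 0 higher and 2 lower, and 0 higher and 1 lower gene in these 3 lists.

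The genes that supply NADPH, which glutathione reductase consumes, were lower in 6 of 6 tested cases, with a median of -0.14. Over all tested genes 7572 of 15526 were lower. None of the 6 was called by limma. Against 6.08% of all tested genes, 3 of the 6 were lower at an unadjusted p at or under 0.05. These were the malic enzyme Me2 (-0.31), the pentose phosphate dehydrogenase Pgd (-0.21) and the transhydrogenase Nnt (-0.15), with limma adjusted p of 0.218, 0.279 and 0.391. The list of glutathione export and mitochondrial import had 0 of 7 called and 2 lower at an unadjusted p at or under 0.05, with a median of -0.063. Slc25a10, the mitochondrial dicarboxylate carrier, had -0.32 (SE 0.11; limma adjusted p = 0.327). Slc25a39, the mitochondrial glutathione carrier, had -0.20 (SE 0.084; limma adjusted p = 0.412).

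Among ferroptosis drivers 0 of 17 tested genes were called (median -0.016), and 3 higher and 1 lower had an unadjusted p at or under 0.05. The heme oxygenase Hmox1 measured 6.50, 5.87 and 6.38 on DHA arrays 1, 2 and 3, against 5.42, 5.29 and 5.31 on DMSO arrays 1, 2 and 3. Its groups were separate (0.91, SE 0.16; limma adjusted p = 0.113). The transferrin receptor gene Tfrc, which brings iron into the cell, was on the other side (-0.39, SE 0.088; limma adjusted p = 0.170), and the reductase Cyb5r1 had 0.33 (SE 0.061; limma adjusted p = 0.126). The desaturase Fads1 had 0.20 (limma adjusted p = 0.322).

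Among ferroptosis suppressors 0 of 15 tested genes were called, and 0 had an unadjusted p at or under 0.05, with a median of -0.031 and 12 lower. Of these, Spr, an enzyme of tetrahydrobiopterin synthesis, had the smallest p (-0.12, SE 0.050; limma adjusted p = 0.416). Ptgs2, a transcript often read as a marker of ferroptosis, measured 3.69 ± 0.046 with DHA and 3.71 ± 0.042 with DMSO (SD, n = 3 each), under the filter. Selenoprotein synthesis, on which GPX4 depends, had 0 of 12 called (median 0.0088), and 1 higher and 3 lower at an unadjusted p at or under 0.05. The selenoprotein P receptor Lrp8 had -0.16, the selenophosphate synthetase Sephs2 -0.19 and the thioredoxin reductase Txnrd1 -0.32, while Trit1, which modifies tRNA, had 0.13.

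Of the 12 tested genes of the integrated stress response list 4 were called higher (Ddit3, Sesn2, Nupr1 and Atf3) and 0 lower, 12 were higher, and the median log2 fold change was 0.84. Separate groups were seen in 11 of the 12, the exception being Cebpb (0.0049). Over all tested genes 0.0837% were called higher and 7.64% had separate groups on the higher side. These genes were chosen with their rise in these data known, so this count is a description of the setting of Chac1. NRF2, its partners and targets had 0 of 12 called, 10 lower and a median of -0.076. Besides Hmox1, which this list shares, the NRF2 inhibitor Keap1 and the partner Mafk had the smallest p, each with -0.19 (SE 0.063; limma adjusted p = 0.321 for both), and 1 higher and 3 lower genes had an unadjusted p at or under 0.05.

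Notch receptors and targets were counted because CHAC1 is known in mouse to block the maturation of Notch1. None of the 7 tested genes was called, 6 were lower and the median was -0.068. The Notch target Hes1 measured 7.86, 7.82 and 7.76 on DHA arrays 1, 2 and 3, against 8.21, 8.10 and 8.08 on DMSO arrays 1, 2 and 3. The groups were separate in Hes1 (-0.32, SE 0.057; limma adjusted p = 0.124) and in Nrarp, another Notch target (-0.29, SE 0.082; limma adjusted p = 0.249), the 2 genes of the list with an unadjusted p at or under 0.05. Notch1 itself had -0.12 (limma adjusted p = 0.596).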

How the data were processed

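Each array was deposited as log2 intensities per probe set, for which the submitters' processing notes name RMA and Partek 6.6 without settings or order. RMA usually equalises the arrays and tends to understate changes of dim probe sets. Groups followed the agent in the labels, and replicate numbers were given in accession order. The platform annotation named 1 gene for 23521 of 41345 probe sets, while 1814 had several genes and 16010 were unnamed here. Symbols were updated through the Entrez identifier to RefSeq (23328 matched), and 6654 of 22180 genes under the filter were left out. DHA was compared with DMSO with limma 3.58.1 in R 4.3.3 (lmFit and eBayes, two-sided, Benjamini-Hochberg over 15526 genes, called at 0.05). In simulated data with 200 changed genes this procedure recovered 90.2% of log2 changes of 0.5. That does not give its power on these arrays, where Cth missed the threshold at 1.20. Every SE and interval is limma's moderated one, in which each gene's variance is drawn toward that of all genes, and intervals are unadjusted. Members, lists and alternatives were chosen with earlier results of these data known. Named were all members, the called genes and up to 4 genes of smallest p within each list, and the 5 genes nearest Chac1 in profile. The other genes named (Oplah, Cebpb, Arl14ep, Arl11, Slco4a1, Klhl21, Rag2, Cd24a, Igll1) were chosen after their values were seen. The promoter motifs were also chosen after seeing the data. Alternatives left out each array, or changed the filter, scaling, probe set rule, moderation, weights or the title code term. The number of arrays limits the precision.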

Additional observations from a re-analysis of the deposited data

How the results depend on the processing

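No paired analysis was possible because replicate numbers came from accession order and only 1 title code was shared between the groups. The Chac1 groups lay 1.60 apart at the narrowest, so its sign could hardly change in the 17 refits and is not counted. Its log2 fold change lay between 1.95 and 2.46 on leaving out 1 array. The other tested members kept 0 calls in each refit and at an adjusted p of 0.1. Signs held in 17 of 17 refits for Chac2, Ggct, Gclc, Gclm, Gsr and Gpx4, but in several refits they could not change. Refits of the filter, the probe set rule or the moderation could not move these estimates, as each gene had 1 probe set. The term for the shared code also left them as they were. Ggct and Gsr had separate groups and those of Gpx4 met without crossing. Leaving out arrays thus could not change the sign of these genes. Leaving out 1 array gave -0.020 to 0.053 for Acsl4, which was -0.012 within title codes that start with 4. For Gss it gave -0.020 to 0.18, and the value was -0.0065 without both samples of the shared code and -0.046 within codes that start with 2. Slc7a11 was 0.081 within codes that start with 2 and 0.027 by its dimmer probe set. The count of called genes, 14 (13 higher, 1 lower), lay between 0 and 24 with 1 array left out. Dropping the filter gave 5, and the count was 62 at the 50th percentile (47 higher, 15 lower), 52 with median centring (41 and 11), 63 with quantile normalization (52 and 11), 62 with trend and robust moderation (50 and 12), 41 with a term for the shared code, 0 without both of its samples and 80 at an adjusted p of 0.1. With the leading digit as a block it was 14 (14 higher, 0 lower), which held 11 of the first 14 and missed Arl11, Slco4a1 and Klhl21. Genes with separate groups, 2458, lay between 3607 and 4164 with 1 array left out and numbered 5806 without both samples of the shared code, where fewer arrays separate more easily. Otherwise the cause was not tested.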

Other observations

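The order of the arrays within each group was shared between Chac1 and part of the stress response list. In Chac1 the lowest DHA array was replicate 2, the highest DMSO array was replicate 1 and the lowest DMSO array was replicate 3. The same held in 6 of the 12 stress response genes, in 0 of the 8 other tested members and in 7.23% of all tested genes. Beside that share, 0 of so few members says little. Sesn2, Nupr1, Ddit3 and Atf3 are among the 6 and are also among the genes found closest to Chac1 over these same arrays. The stress response list was chosen with its rise in these data known, so these counts are a description only. DHA replicate 2 alone was the lowest DHA array in 11 of the 12 stress response genes, against 3 of the 8 other members and 38% of all tested genes. DHA replicate 2 and DMSO replicate 3 share a title code and were the most alike pair of arrays (Pearson correlation 0.9947 over all probe sets). The lead was narrow, since DHA replicates 1 and 3, whose codes differ, had 0.9946.

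The element TGATGNAA stood in the promoter windows of 320 of the 12084 tested genes that had a window (2.65%). Of the 12 called genes with a window, 11 of which were higher with DHA, it stood in 4. These were Chac1, Atf3, Nupr1 and Arl14ep, all higher with DHA. The element was not in the windows of Ddit3 or Sesn2. The median log2 fold change of the 320 genes was 0.025, against 0.0020 for all tested genes with a window, and 4 of the 320 were at least doubled, against 10 of the 12084. Chac1, which was picked on this difference, is in both counts of 4. The element was chosen after the data were seen, so nothing is read from these counts. Whether the element plays a part in any difference between DHA and DMSO was not tested.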
